A study of Mus musculus with 29 samples.

Results

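T-cell transfer colitis (TCT) was compared directly with IL-10 deficiency colitis in whole colon RNA, mouse by mouse and over all genes. The members were chosen by group label and were the 7 RNA-seq libraries of these groups among the 29 of the series, 3 TCT mice (numbered 1, 3 and 5) and 4 IL-10 deficiency mice (numbered 1 to 4, called the IL-10 mice from here on), 1 library per mouse. The groups pose the question of how a colitis driven by CD4+ T cells alone, in a colon without B cells, differs from a colitis in which every class of lymphocyte is present. By their labels the TCT mice were C57BL/6 Rag1-/- recipients of sorted naive CD4+ T cells, 500000 cells per mouse by intraperitoneal injection, and were culled 6 to 8 weeks later. The treatment text calls these recipients Rag2-/-, against the genotype label. The IL-10 mice were labelled Balb/C given an IL10 blocking antibody. The treatment text gives 750 µg of anti-IL-10R and culling after 4 weeks, or earlier where signs of colitis were seen, whereas the study's methods describe Il10-/- mice given microbiota by gavage. The untreated mice used beside them were 3 labelled Balb/C with no mutation (the wild-type controls), 3 labelled C57BL/6 Rag1-/- and 3 labelled Balb/C Rag2-/-. By these labels host genotype, strain, colitis model, time and the presence of lymphocytes other than the transferred cells differ together between the groups and cannot be told apart. No age or sex is given in the labels. Xist was expressed in all 7 mice and the Y-linked genes Ddx3y, Kdm5d and Uty had no count in any. Nothing says that mice of a group came from separate cages, so p-values measure a spread between mice. In the fit of all 29 libraries that spread is pooled over the mice of all groups, not taken from these 7 alone.

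Rag1 and Rag2 encode the recombinase that assembles B and T cell receptors, so a host without it makes neither B cells nor T cells of its own. Naive CD4+ T cells placed in such a host expand and drive colitis through cytokines such as interferon gamma and interleukin 17. Interleukin 10 is made by regulatory T cells, macrophages and B cells and restrains that response, and when it or its receptor is missing colitis develops with B cells, plasma cells, CD8+ T cells and gamma-delta T cells still in place. Plasma cells of the colon secrete dimeric IgA, joined by the J chain and carried into the lumen by the epithelium.

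Depth was even, with 10730181 to 11659953 counts per TCT library and 11468819 to 12930430 per IL-10 library. Values are CPM, the counts of a gene scaled to a common library total with TMM factors that correct for unequal composition. Positions of genes are given on GRCm38 from GENCODE M21. Where a gene is at 0, as many as 3 counts per library are still possible, 0.256 to 0.278 CPM in TCT and 0.253 to 0.313 CPM in the IL-10 mice, counting error only. A fold change is the TCT level over the IL-10 level on the log2 scale ± SE from edgeR's quasi-likelihood fit of all 29 libraries in 9 groups. Its p-value is adjusted by Benjamini-Hochberg over all 18616 genes tested. A gene was called at an adjusted p under 0.05.

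The genotypes and strains were checked against the labels. Rag1 was at 2.88, 2.31 and 1.85 CPM in the TCT mice and had no count in the IL-10 mice, at least 8.27-fold higher in TCT. Rag2 had no count in any of the 7 libraries. Counts per gene do not show whether reads of Rag1 or Il10 lie in a deleted part, so they do not check a deletion. Il10 (ENSMUSG00000016529, chr1:131019845-131024974) was at 0.524, 0.171 and 0.648 CPM in the TCT mice and at 8.93, 11.5, 5.23 and 7.84 CPM in the IL-10 mice (log2 fold change -4.21 ± 0.75, adjusted p = 6.3e-04), against 0.196 ± 0.104 CPM (mean ± SD, n = 3) in the wild-type controls. The groups did not overlap, and the transcript of the blocked pathway was the higher one in the IL-10 mice. H2-Ea-ps, the class II E alpha gene that is silent on the C57BL/6 haplotype and active in Balb/C, was at 0 in the TCT mice and at no more than 0.104 CPM in the IL-10 mice, and at 0.0254 ± 0.044 CPM in the wild-type controls. The IL-10 mice and the wild-type controls, both labelled Balb/C, therefore went against that label. The untreated mice labelled C57BL/6 Rag1-/- went against theirs, at 73.5 ± 5.43 CPM, close to the 87.3 ± 21 CPM of the untreated Rag2-/- Balb/C mice. Tests that use these controls are given last for that reason. Before them, levels in the wild-type controls are given beside some genes under the same doubt.

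IL-10 mouse 4 stood apart from the other 3 in the genes that mark position along the bowel. The posterior Hox genes pattern the distal gut and stay on in the distal colon. Hoxb13 was at 346, 326 and 267 CPM in the TCT mice and at 457, 456 and 344 CPM in IL-10 mice 1 to 3, but at 0.209 CPM in mouse 4. Hoxa13 was at 78.5, 65.6 and 46.2 CPM in TCT and at 61.1, 70.7, 67.1 and 0.731 CPM in the IL-10 mice, and Hoxd13 was at 413, 300.4 and 299 CPM in TCT and at 249, 275, 7.89 and 0.313 CPM in the IL-10 mice. Mouse 3 thus kept Hoxb13 and Hoxa13 and was low in Hoxd13 and in Hoxd12 (10.3, 18.2, 0.772 and 0 CPM in IL-10 mice 1 to 4). Mouse 4 was also the highest of the 7 in Fabp2, a fatty acid binding protein strongest in small bowel and proximal gut, which was at 6.02, 12.9 and 4.82 CPM in the TCT mice and at 7.84, 7.79, 43.7 and 232 CPM in the IL-10 mice. Cdx2, the caudal-type transcription factor of the intestine, was at 20.4, 13 and 7.69 CPM in the TCT mice and at 15.6, 11.3, 167 and 469 CPM in the IL-10 mice, high in mice 3 and 4 alone. Of the 11 position genes tested, 1 (Fabp2) was called lower in TCT and 0 higher. Whether the segment taken differed was not tested, and results are given with and without mouse 4 and, where it matters, without mice 3 and 4.

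**Figure D1:**
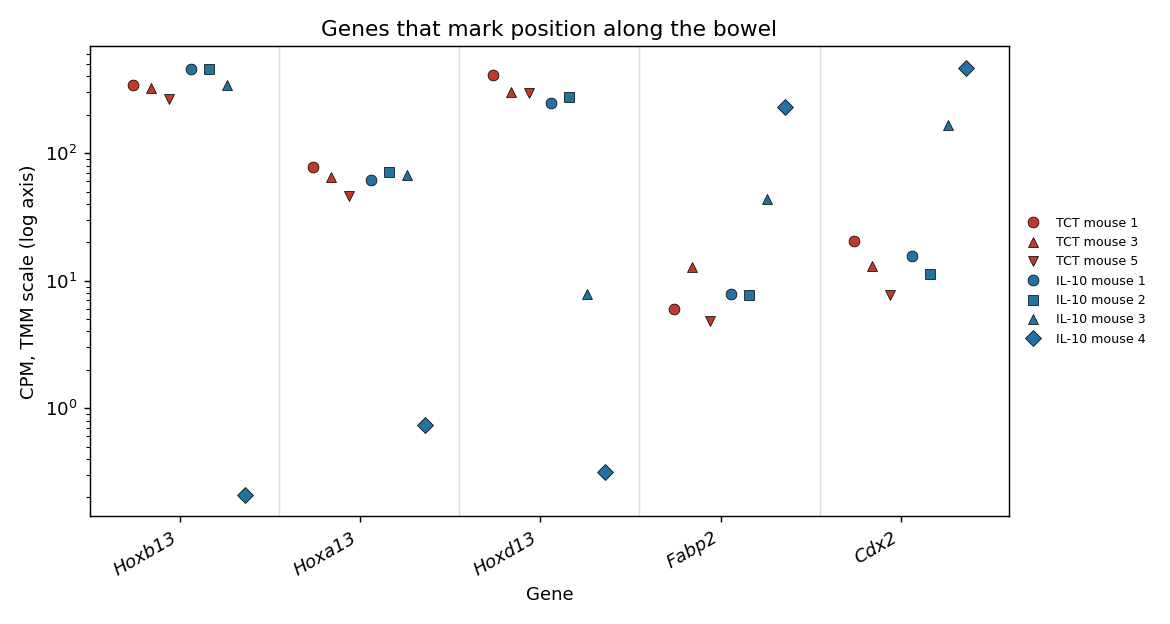
Position markers by mouse, in CPM on a log axis. Each point is 1 mouse, with values below 0.1 drawn at 0.1. IL-10 mouse 4 lies at 0.209 to 0.731 CPM for Hoxb13, Hoxd13 and Hoxa13, where the 3 TCT mice lie between 46.2 and 413 CPM, and it is the highest for Fabp2 and Cdx2.

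Many genes differed between the colitis models in both directions. 1828 genes were higher in TCT (9.82% of those tested) and 2093 were lower (11.2%), and the median log2 fold change over all genes was 0.03. The mice of the groups did not overlap for 1515 of the higher and 1706 of the lower genes. Without IL-10 mouse 4 the counts were 1114 (5.98%) and 1334 (7.16%), of which 1057 and 1249 had also been called with it. Without mice 3 and 4 they were 775 (4.16%) and 1116 (5.99%). TCT mouse 3 also moved the counts, which were 1186 and 1333 without it. The counts were also smaller without the other 7 groups in the fit. Fitted on these 7 libraries alone, 254 genes were higher (1.36%) and 343 lower (1.84%). Alone and without mouse 4, 340 were higher (1.83%) and 549 lower (2.95%). DESeq2 on the 7 libraries called 870 (5.44%) and 1353 (8.45% of the genes it gave an adjusted p). The edgeR fit of 6 libraries, which uses neither mouse 4 nor other groups, is given beside each gene group with over 3 calls. Each group is described by its counts against these percentages and by its median log2 fold change, with no test of the group as a whole. Where leaving out 1 mouse moved a count of over 3 members by more than 1.5 times, the count without that mouse is given.

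**Figure D2:**
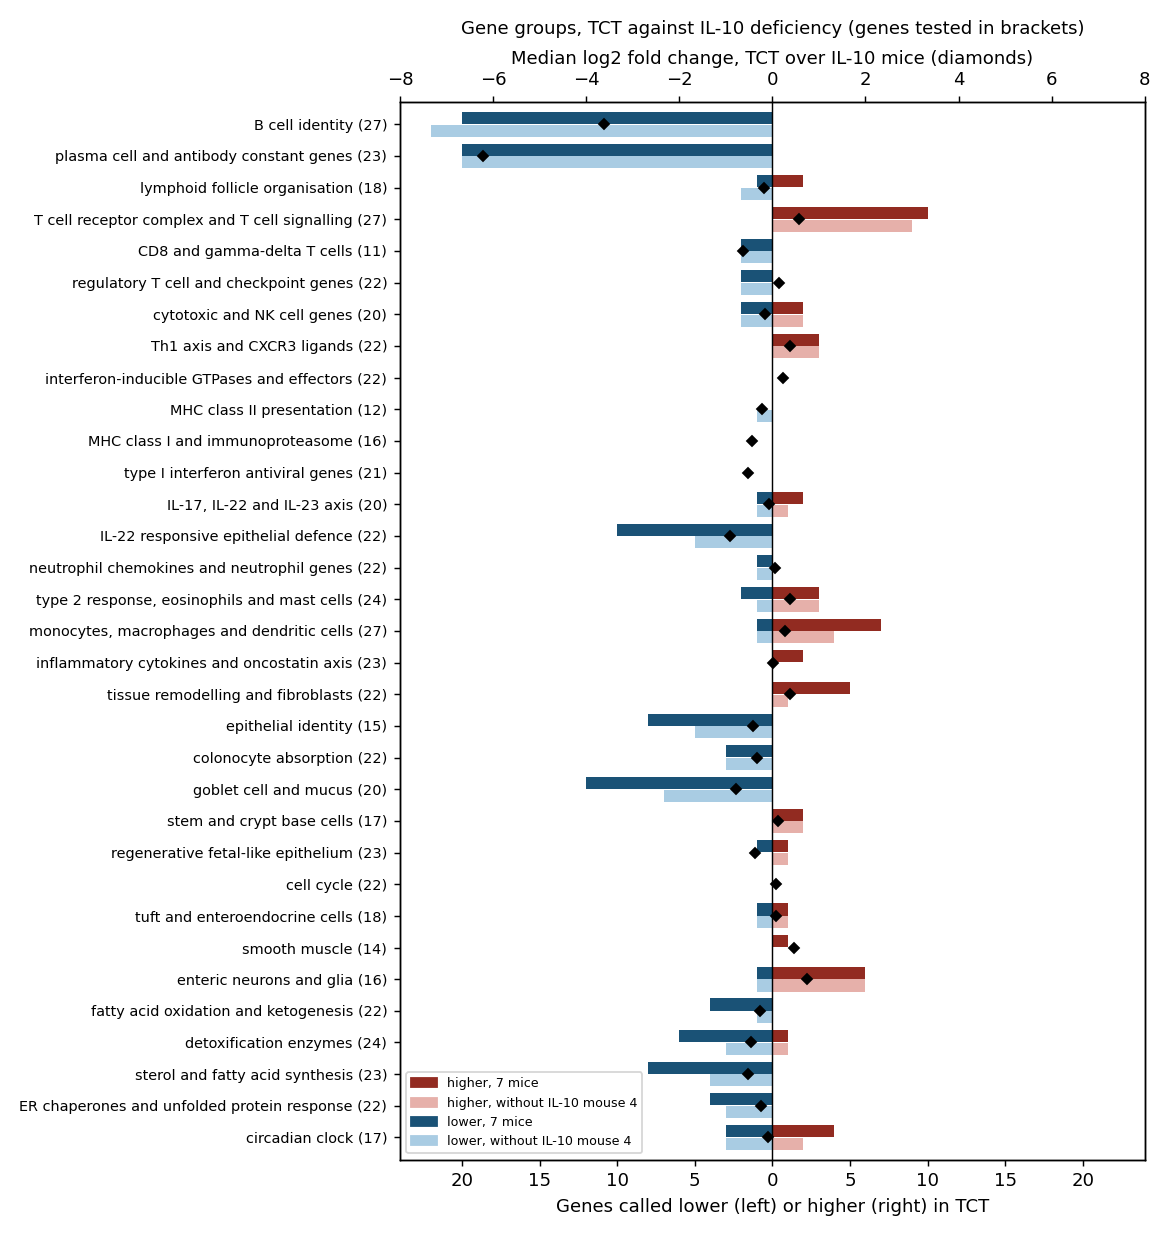
Gene groups in TCT against the IL-10 mice. Bars give the number of members called higher (right) or lower (left) in TCT, dark for all 7 mice and light without IL-10 mouse 4, and diamonds mark the median log2 fold change of the members on the upper axis. The antibody and B cell groups lie farthest to the left, and the T cell receptor group has the most members called higher.

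B cell genes were low or absent in the TCT colon and present in every IL-10 mouse. Of 27 B cell identity genes tested, 20 were lower in TCT, 0 were higher and 7 were not called, with a median log2 fold change of -3.62, the same with genes at 0 in TCT set to their bound. Without mouse 4, 22 were lower, in the fit of the 7 libraries alone 14, and alone without mouse 4 20. In whole tissue, fewer cells of a type and less RNA per cell cannot be told apart. Fcmr, the Fc receptor for IgM (ENSMUSG00000042474, chr1:130865669-130880791), had no count in any TCT mouse and was at 3.71, 3.84, 12.7 and 1.78 CPM in IL-10 mice 1 to 4, at least 20.7-fold lower in TCT (adjusted p = 3.8e-04). It was highest in IL-10 mouse 3 and lowest in mouse 4, and the same held for Cd79a, Ms4a1 and Pax5.

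Cd79a, the Ig-alpha signalling chain of the B cell receptor (ENSMUSG00000003379, chr7:24897381-24902197), was at 0.175, 0.256 and 0 CPM in the TCT mice and at 38.3, 41.2, 110 and 13.5 CPM in the IL-10 mice (log2 fold change -8.34 ± 0.85, adjusted p = 9.8e-07). Cd79b, its Ig-beta partner, was at 2.62, 0.94 and 1.94 CPM in the TCT mice and at 22.9, 28.8, 53.2 and 9.4 CPM in the IL-10 mice (log2 fold change -3.96 ± 0.57, adjusted p = 1.1e-04). Ms4a1, which encodes CD20, was at 1.66, 0.854 and 0.556 CPM in the TCT mice and at 17.4, 19.8, 43.5 and 3.34 CPM in the IL-10 mice (log2 fold change -4.34 ± 0.61, adjusted p = 8.7e-05). None of these overlapped between the groups, although Cd79b and Ms4a1 kept countable reads in every TCT mouse while Cd79a had none in mouse 5. Pax5, the transcription factor that commits cells to the B lineage, had 1 count over the 3 TCT libraries and was at 4.21, 8.52, 23.2 and 2.51 CPM in the IL-10 mice, a ratio of 339 (interval 60.6 to 13436) by exact counting at 95%. Pou2af1, the co-activator of octamer-dependent transcription in B cells, was at 0.175, 0 and 0.185 CPM in the TCT mice and at 31.1, 34.2, 67.9 and 13 CPM in the IL-10 mice (log2 fold change -8.16 ± 0.75, adjusted p = 1.8e-07). Receptors of mature and follicular B cells followed. Cr2, the complement receptor of follicular B cells, was at 0.175, 0.171 and 0.185 CPM in the TCT mice and at 5.56, 7.17, 19.1 and 1.15 CPM in the IL-10 mice (log2 fold change -5.48 ± 0.89, adjusted p = 2.9e-04). Tnfrsf13c, the receptor for the survival factor BAFF, was at 0.524, 0.171 and 0.463 CPM in the TCT mice and at 8, 10.5, 21.5 and 1.99 CPM in the IL-10 mice (log2 fold change -4.74 ± 0.70, adjusted p = 1.4e-04).

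Some members differed less or were not called. Cd22 was at 6.46, 3.59 and 2.96 CPM in the TCT mice and at 9.69, 10.8, 33.2 and 3.24 CPM in the IL-10 mice and was called (log2 fold change -1.72 ± 0.52, adjusted p = 0.021), but its groups overlapped and without other groups in the fit it was not called (adjusted p = 0.056 without mouse 4). Cd72 (-1.20 ± 0.33, adjusted p = 0.014), Ly6d (-1.94 ± 0.57, adjusted p = 0.019) and Blnk (-0.78 ± 0.14, adjusted p = 5.2e-04) were lower by smaller amounts. Spib (-0.68 ± 0.51, adjusted p = 0.36), Ebf1 (-0.39 ± 0.39, adjusted p = 0.5) and Cd180 (-0.03 ± 0.42, adjusted p = 0.97) were not called, with 95% intervals of -1.74 to 0.37, -1.20 to 0.41 and -0.90 to 0.83 on the log2 scale.

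The octamer, a motif of promoters active in B cells that Pou2af1 acts on, was searched as ATTTGCAT on both strands in the 300 bases around each start site (250 before to 50 after) of the RefSeq promoter table for GRCm38.p6. It was in 1.97% of 27025 genes, in 2 of the 20 B cell identity genes found in the table, in 1 (Pim2) of 10 plasma cell and antibody genes, and in 0 of 15 T cell genes. The B cell genes that hold it, shown here because both were lower in TCT, are Vpreb3, a component of the immature B cell receptor at chr10:75948050-75948349 on the plus strand, and Blnk, the adaptor below that receptor, at chr19:40994172-40994471 on the minus strand. The octamer is in capitals.
Vpreb3: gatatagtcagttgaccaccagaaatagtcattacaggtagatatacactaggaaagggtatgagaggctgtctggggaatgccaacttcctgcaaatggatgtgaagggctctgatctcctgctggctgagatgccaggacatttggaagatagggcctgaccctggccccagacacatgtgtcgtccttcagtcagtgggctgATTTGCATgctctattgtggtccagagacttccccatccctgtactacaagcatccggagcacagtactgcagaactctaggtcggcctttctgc
Blnk: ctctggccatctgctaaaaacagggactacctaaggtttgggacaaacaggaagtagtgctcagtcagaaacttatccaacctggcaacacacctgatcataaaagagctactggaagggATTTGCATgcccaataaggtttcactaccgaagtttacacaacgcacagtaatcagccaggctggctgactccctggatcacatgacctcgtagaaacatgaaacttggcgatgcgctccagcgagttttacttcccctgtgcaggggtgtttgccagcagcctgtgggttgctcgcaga
Vpreb3 was at 0.175, 0.171 and 0.278 CPM in the TCT mice and at 2.44, 1.77, 5.66 and 0.627 CPM in the IL-10 mice (log2 fold change -3.62 ± 0.74, adjusted p = 0.0024), whereas Blnk was at 84.1, 75.3 and 89.9 CPM in the TCT mice and at 124, 153, 138 and 155 CPM in the IL-10 mice, still abundant in the colons without B cells. A match is a description of the sequence and not of binding.

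Antibody transcripts made a wide gap between the models. Immunoglobulin genes took 0.531% to 1.19% of all counts in the IL-10 mice, 0.0606% to 0.189% in the wild-type controls and 0.000728% to 0.00145% in TCT. Of 23 plasma cell and antibody constant genes tested, 20 were lower in TCT and 0 higher, with a median log2 fold change of -6.21, also the same at the bound. The number lower was 20 without mouse 4, 17 in the 7 libraries alone and 18 alone without mouse 4. Igha, the heavy chain of IgA (ENSMUSG00000095079, chr12:113254830-113260236), was at 0.611, 0.342 and 1.3 CPM in the TCT mice and at 3601, 4625, 5333 and 3287 CPM in the IL-10 mice (log2 fold change -12.46 ± 0.61, adjusted p = 7.7e-13). Jchain, which joins IgA into dimers (ENSMUSG00000067149, chr5:88519809-88527891), had 1 count over the TCT libraries and was at 1675, 1734, 1802 and 1182 CPM in the IL-10 mice, a ratio of 54765 (interval 9829 to 2163130.0). Igkc, the kappa light chain, was at 0.175, 0.0854 and 1.11 CPM in the TCT mice and at 1585, 1887, 1961 and 1301 CPM in the IL-10 mice (log2 fold change -11.86 ± 0.65, adjusted p = 2.6e-11). Mouse 4 was the lowest IL-10 mouse in all 3 genes, and still over 1000 CPM in each.

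IgM differed less. Ighm was at 6.46, 5.3 and 10.1 CPM in the TCT mice and at 108, 86.9, 232 and 30.7 CPM in the IL-10 mice (log2 fold change -3.98 ± 0.49, adjusted p = 1.9e-05), so that the TCT mice held 245 Ighm counts beside 25 of Igha. The IgG genes were uneven among the IL-10 mice. Ighg2b was at 271, 297, 1052 and 99.5 CPM in IL-10 mice 1 to 4 and had 1 count in TCT, and Ighg1 was at 31.7, 17.6, 74.1 and 5.96 CPM and at 0 in TCT, at least 122-fold lower. IgG took 8.77%, 7.42%, 19.4% and 4.66% of the heavy chain constant counts in mice 1 to 4, with Wilson 95% intervals of 19.2% to 19.7% in mouse 3 and 4.44% to 4.89% in mouse 4, counting error only. IgA took 88.3%, 90.6%, 76.7% and 94.3%. The share of light chain constant counts that was lambda ran from 15.2% in mouse 1 to 25.4% in mouse 3, and from 4.37% to 11.4% in the wild-type controls. The IgG genes and the lambda genes share sequence among themselves, so their split is uncertain.

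**Figure D3:**
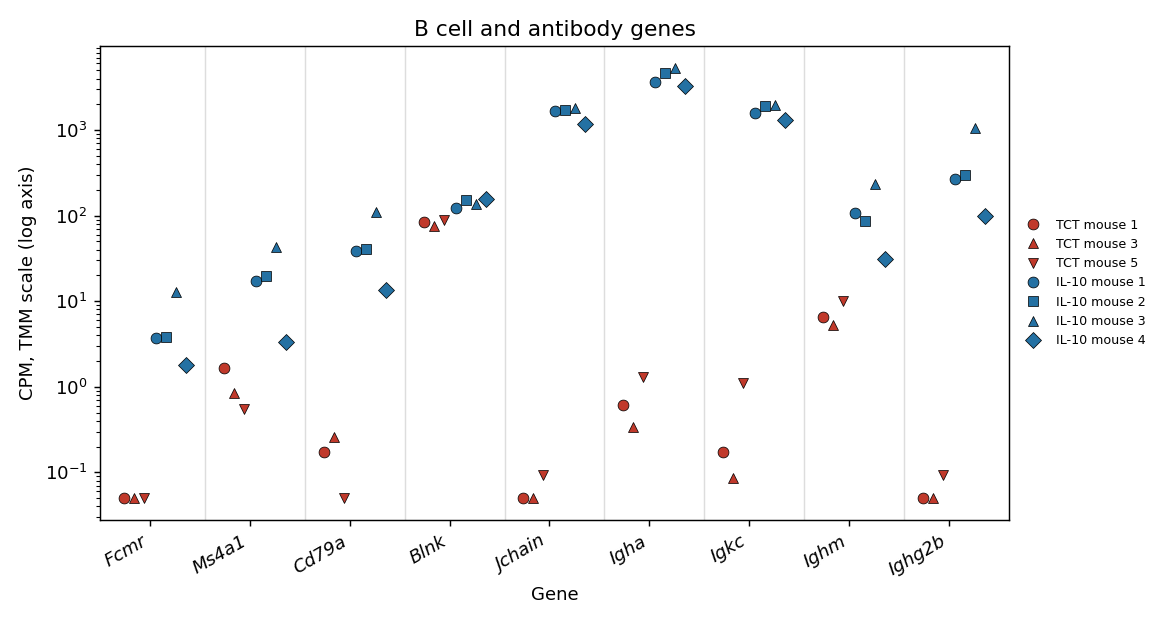
B cell and antibody genes by mouse, in CPM on a log axis. Each point is 1 mouse and a count of 0 is drawn at 0.05. Every gene separates the 3 TCT mice from the 4 IL-10 mice, Blnk by the least, and IL-10 mouse 4 is the lowest IL-10 mouse for Fcmr, Ms4a1, Jchain, Igha and Igkc.

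Variable segments, the parts of the antibody genes chosen by recombination, were counted per library. The IL-10 mice held 4392 to 15917 counts over the 115 heavy variable segments, with 70 to 83 segments above 3 counts, against 5 to 7 counts in TCT. Kappa segments held 6855 to 18729 counts in the IL-10 mice and 0 to 3 in TCT. 65 of 68 heavy, 69 of 71 kappa and 3 of 3 lambda segments tested were lower in TCT, 57, 66 and 3 in the fit of 6 libraries alone. Their median log2 fold changes with segments at 0 set to their bound were -5.20, -5.70 and -9.54. The leading heavy segment differed in each IL-10 mouse. Ighv1-26 took 5.94% of heavy variable counts in mouse 1, Ighv6-3 15.5% in mouse 2, Ighv14-2 9.97% in mouse 3 and Ighv1-64 6.35% in mouse 4. The leading kappa segments also differed, Igkv8-30 at 17.6%, Igkv8-21 at 17%, Igkv1-117 at 11.1% and Igkv8-27 at 12.7% of kappa variable counts. Segments of 1 family share long stretches of sequence, and how reads were split between them was not examined.

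Genes of plasma cell differentiation and secretion followed the antibody genes only in part. Tnfrsf17, the survival receptor BCMA, had 2 counts in TCT and was at 5.22, 5.5, 6.35 and 2.4 CPM in the IL-10 mice. Derl3, which helps clear misfolded proteins from the endoplasmic reticulum, was at 0.873, 0.854 and 1.02 CPM in the TCT mice and at 15.8, 15.2, 27.5 and 8.46 CPM in the IL-10 mice (log2 fold change -4.18 ± 0.45, adjusted p = 2.6e-06). Eaf2, an elongation factor of plasma cells, was at 0.524, 0.342 and 0.556 CPM in the TCT mice and at 6.49, 5.4, 8.23 and 4.28 CPM in the IL-10 mice (log2 fold change -3.67 ± 0.39, adjusted p = 1.5e-06). The groups did not overlap in these 3. Tnfrsf13b, the receptor TACI, was at 3.4, 2.82 and 3.61 CPM in the TCT mice and at 14.2, 15.1, 25.4 and 6.58 CPM in the IL-10 mice (log2 fold change -2.22 ± 0.34, adjusted p = 1.9e-04). Genes that epithelium also expresses differed little or were not called. Xbp1, the transcription factor of secretory cells, was at 266, 343 and 362 CPM in the TCT mice and at 441, 541, 452 and 332 CPM in the IL-10 mice (log2 fold change -0.45 ± 0.15, adjusted p = 0.031). Sdc1, the plasma cell and epithelial syndecan, was at 233, 331 and 201 CPM in the TCT mice and at 229, 267, 287 and 308 CPM in the IL-10 mice (log2 fold change -0.10 ± 0.18, adjusted p = 0.74).

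Genes that organise lymphoid follicles did not follow the B cells. Of 18 tested, 2 were higher in TCT, 1 was lower and the median log2 fold change was -0.19. The fit of 6 libraries alone called 0 higher and 0 lower. Cxcl13, the chemokine that draws B cells into follicles, was at 61.2, 51.5 and 40.4 CPM in the TCT mice and at 24.3, 25.2, 43.5 and 6.9 CPM in the IL-10 mice (log2 fold change 1.03 ± 0.36, adjusted p = 0.042), and without mouse 4 it was not called (adjusted p = 0.095). Il7, the lymphocyte survival cytokine, was at 14.7, 14.5 and 8.06 CPM in the TCT mice and at 6.74, 9.35, 7.2 and 5.12 CPM in the IL-10 mice (log2 fold change 0.81 ± 0.27, adjusted p = 0.032) and was likewise not called without mouse 4 (adjusted p = 0.1). Ltbr, the receptor for lymphotoxin, was lower (log2 fold change -0.51 ± 0.12, adjusted p = 0.0044). Ltb, its ligand, was at 39.4, 23.5 and 21.8 CPM in the TCT mice and at 24.8, 24.2, 42.9 and 23.5 CPM in the IL-10 mice, with a 95% interval of the log2 difference of -0.75 to 0.69.

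T cell genes were present in both models, and some co-receptor and signalling genes were higher in TCT. Of 27 genes of the T cell receptor complex and its signalling, 10 were higher in TCT and 0 lower, against 9.82% of all genes. The median log2 fold change was 0.58. 9 were called without mouse 4 and 6 in the fit of 6 libraries alone. Without TCT mouse 1, 5 were called and the median was 0.34. Among the 10 were Cd4, Cd5, Cd6, Lat, Cd40lg, Thy1, Themis, Bcl11b and Ubash3a. The receptor chains themselves were not called. Cd3e was at 8.81, 10.2 and 5.65 CPM in the TCT mice and at 4.72, 5.19, 8.57 and 4.08 CPM in the IL-10 mice. Trac, the alpha chain constant gene, was at 17.9, 11.2 and 9.17 CPM in the TCT mice and at 6.82, 8.52, 13 and 5.75 CPM in the IL-10 mice. Trbc1 was at 15.9, 14.9 and 10.5 CPM in the TCT mice and at 12, 11.6, 15.6 and 12 CPM in the IL-10 mice. Their 95% intervals on the log2 scale were -0.41 to 1.49, -0.02 to 1.18 and -0.64 to 0.85. Trbc1 shares 40.5% of its 50-base windows with Trbc2, so its level is uncertain.

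Cd4, the co-receptor of helper T cells that macrophages also express at a lower level, was at 68.9, 51.6 and 38 CPM in the TCT mice and at 16.7, 18.6, 37 and 11.3 CPM in the IL-10 mice (log2 fold change 1.33 ± 0.34, adjusted p = 0.008). All TCT mice were above all IL-10 mice, with TCT mouse 5 close to IL-10 mouse 3. Themis, a regulator of T cell receptor signalling (ENSMUSG00000049109, chr10:28668360-28883818), was at 13.2, 8.54 and 7.96 CPM in the TCT mice and at 1.85, 1.45, 2.49 and 1.99 CPM in the IL-10 mice (log2 fold change 2.34 ± 0.32, adjusted p = 1.4e-04). Ubash3a, a phosphatase that damps receptor signalling, was at 10.9, 5.55 and 6.11 CPM in the TCT mice and at 1.69, 1.97, 1.97 and 1.88 CPM in the IL-10 mice (log2 fold change 2.00 ± 0.42, adjusted p = 0.0021). All TCT mice were above all IL-10 mice in both. Cd5, an inhibitory co-receptor, was at 34.6, 15.7 and 15.2 CPM in the TCT mice and at 5.65, 4.78, 9.95 and 2.72 CPM in the IL-10 mice (log2 fold change 1.91 ± 0.47, adjusted p = 0.0082). Cd6, its relative, was at 49, 21.2 and 19 CPM in the TCT mice and at 9.44, 9.04, 14.4 and 5.22 CPM in the IL-10 mice (log2 fold change 1.64 ± 0.41, adjusted p = 0.0069). Lat, the adaptor that gathers the signalling complex, was at 60.1, 31 and 32.9 CPM in the TCT mice and at 17.2, 17, 21.8 and 17.6 CPM in the IL-10 mice (log2 fold change 1.17 ± 0.29, adjusted p = 0.0067). Cd40lg, the ligand through which helper T cells signal to B cells, was at 3.4, 2.56 and 1.57 CPM in the TCT mice and at 0.337, 0.519, 1.11 and 0.418 CPM in the IL-10 mice (log2 fold change 2.04 ± 0.54, adjusted p = 0.016). The groups overlapped in none of these 6 genes, and TCT mouse 1 was the highest of the TCT mice in each.

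The CD8 beta chain and the delta chain, which mark T cells other than CD4+ cells, were lower in TCT. Cd8b1, the beta chain of CD8 found on thymus-derived CD8+ T cells (ENSMUSG00000053044, chr6:71322788-71337494), was at 0.349, 0.171 and 1.48 CPM in the TCT mice and at 3.03, 3.12, 4.72 and 3.03 CPM in the IL-10 mice (log2 fold change -2.39 ± 0.59, adjusted p = 0.0069). Cd8a, the alpha chain that intraepithelial and dendritic cells also carry, was at 9.69, 12.5 and 6.11 CPM in the TCT mice and at 16.8, 19.3, 20.8 and 19.4 CPM in the IL-10 mice, without overlap but not called (log2 fold change -1.02 ± 0.44, adjusted p = 0.099). Trdc, the delta chain constant gene, was at 0.175, 0.0854 and 0.0926 CPM in the TCT mice and at 0.927, 1.04, 1.97 and 1.78 CPM in the IL-10 mice (log2 fold change -3.49 ± 0.80, adjusted p = 0.0043), 4 counts over the TCT libraries. The gamma chain constant genes did not follow it. Tcrg-C2 was at 13.4, 11.7 and 6.95 CPM in the TCT mice and at 5.65, 6.54, 6.26 and 7 CPM in the IL-10 mice (log2 fold change 0.75 ± 0.36, adjusted p = 0.15). Tcrg-C1 was at 2.18, 3.5 and 2.5 CPM in the TCT mice and at 4.38, 2.6, 4.72 and 5.22 CPM in the IL-10 mice (log2 fold change -0.63 ± 0.38, adjusted p = 0.25). Both share sequence with Tcrg-C3 and are uncertain. In all, 2 of 11 CD8 and gamma-delta genes were lower and 0 higher, beside 11.2% and 9.82% of all genes. The log2 fold change was positive in 4 of the 11. Without mouse 4, 2 were lower, and 1 (Trdc) was lower in the fit of 6 libraries alone.

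Variable segments of the T cell receptors gave few reads in either model. Alpha segments held 29 to 69 counts per TCT library and 15 to 55 per IL-10 library, and 0 of 128 reached the count limit for a test. Beta segments held 56 to 147 and 41 to 93, and 0 of 3 tested was called. Of 2 gamma and delta segments tested, 1 (Trgv2) was higher and 1 (Trdv4) lower in TCT. The number of T cell clones cannot be read from these counts.

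**Figure D4:**
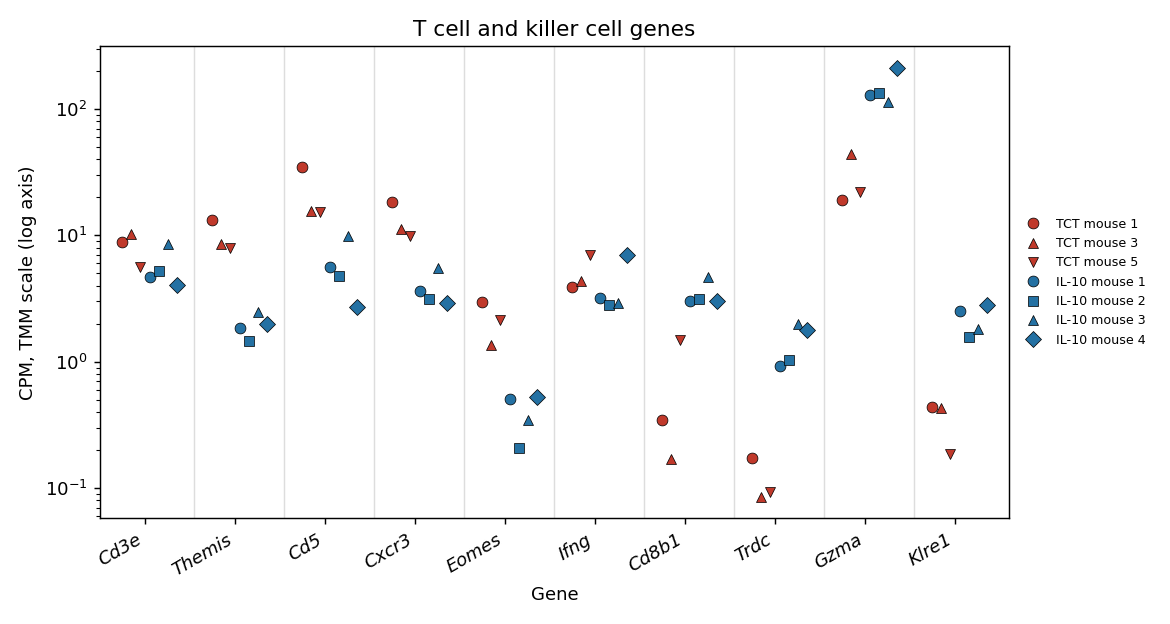
T cell and killer cell genes by mouse, in CPM on a log axis. Each point is 1 mouse. Themis, Cd5, Cxcr3 and Eomes are higher in every TCT mouse, Cd8b1, Trdc, Gzma and Klre1 are higher in every IL-10 mouse, and Cd3e and Ifng overlap.

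In the fit of all 29 libraries cytotoxic genes were called about as often as all genes were. In fits without the other groups they were called more often, and in each fit the called genes lay in both directions. Of 20 tested, 2 were higher in TCT and 2 lower, beside 9.82% and 11.2% of all genes. The fit of 6 libraries alone called 3 higher and 2 lower, beside 1.83% and 2.95% of all genes. DESeq2 on the 7 libraries called 5 higher and 4 lower, beside 5.44% and 8.45%. Gzma, the granzyme of intraepithelial lymphocytes and natural killer cells, was at 19, 43.9 and 21.9 CPM in the TCT mice and at 129, 133, 114 and 212 CPM in the IL-10 mice (log2 fold change -2.37 ± 0.61, adjusted p = 0.0081). Klre1, a lectin-like receptor of natural killer cells, was at 0.436, 0.427 and 0.185 CPM in the TCT mice and at 2.53, 1.56, 1.8 and 2.82 CPM in the IL-10 mice (log2 fold change -2.59 ± 0.62, adjusted p = 0.0053). In the other direction, Eomes, a T-box factor of effector and memory cells, was at 2.97, 1.37 and 2.13 CPM in the TCT mice and at 0.506, 0.208, 0.343 and 0.522 CPM in the IL-10 mice (log2 fold change 2.41 ± 0.55, adjusted p = 0.0041). Gzmc, a granzyme of strongly activated cells, was at 0.611, 2.05 and 2.13 CPM in the TCT mice and at 0.169, 0, 0.343 and 0.313 CPM in the IL-10 mice (log2 fold change 2.87 ± 0.65, adjusted p = 0.0037). Gzmb, the granzyme of activated killer cells, was at 12.2, 27.3 and 21.8 CPM in the TCT mice and at 39.3, 34.5, 37.8 and 44.3 CPM in the IL-10 mice, lower without overlap but not called (log2 fold change -0.93 ± 0.51, adjusted p = 0.2). Ncr1, a defining receptor of natural killer cells and of some innate lymphoid cells, was at 0.611, 0.427 and 0.648 CPM in the TCT mice and at 0.59, 0.312, 1.11 and 0.313 CPM in the IL-10 mice and overlapped. 2 of 5 Ly49 receptor genes tested were lower in TCT. Klra7 was at 0.436, 0.342 and 0.463 CPM in the TCT mice and at 3.45, 4.05, 3.94 and 4.18 CPM in the IL-10 mice (log2 fold change -3.21 ± 0.62, adjusted p = 0.0013). Klra6 had 2 counts in TCT and was at 1.18, 1.66, 2.32 and 1.78 CPM in the IL-10 mice, a ratio of 29.4 (interval 7.86 to 247). Klra7 shares 12.3% of its windows with other genes and Klra6 shares 2.62%, so most of the sequence of each is its own. How reads were split among the Ly49 genes was not examined.

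Regulatory T cell and checkpoint genes were mostly not called. Of 22 tested, 2 were lower (Il10 and Lag3) and 0 higher. Lag3, an inhibitory receptor of activated T cells, was at 4.28, 3.5 and 5.28 CPM in the TCT mice and at 8.34, 7.48, 19.7 and 9.09 CPM in the IL-10 mice (log2 fold change -1.36 ± 0.36, adjusted p = 0.01), without overlap. Foxp3, the transcription factor of regulatory T cells, was at 0.436, 1.2 and 0.37 CPM in the TCT mice and at 1.43, 1.25, 3.17 and 0.627 CPM in the IL-10 mice, lower on average but not called (log2 fold change -1.27 ± 0.60, adjusted p = 0.13) and with a 95% interval of -2.51 to -0.04 before adjustment. Ctla4, a brake on T cell activation, was at 3.05, 3.16 and 3.52 CPM in the TCT mice and at 6.32, 4.78, 13.4 and 3.55 CPM in the IL-10 mice (log2 fold change -1.12 ± 0.59, adjusted p = 0.18), without overlap by a narrow margin. Il2ra, the high-affinity interleukin 2 receptor chain, was at 6.11, 2.99 and 4.72 CPM in the TCT mice and at 2.36, 2.49, 5.32 and 2.19 CPM in the IL-10 mice (log2 fold change 0.57 ± 0.50, adjusted p = 0.45), with overlap.

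The cytokine most closely tied to Th1 cells did not differ detectably, while 3 receptor genes of the Th1 axis were called. Of 22 genes of the axis, 3 were higher in TCT and 0 lower, beside 9.82% and 11.2% of all genes. Without mouse 4, 3 were higher, beside 5.98% of all genes. The fit of 6 libraries alone called 4 higher, beside 1.83%. Cxcr3, the receptor for the interferon-induced chemokines (ENSMUSG00000050232, chrX:101731535-101734269), was at 18.4, 11.3 and 9.82 CPM in the TCT mice and at 3.62, 3.12, 5.49 and 2.93 CPM in the IL-10 mice (log2 fold change 1.79 ± 0.35, adjusted p = 0.0012). Il18r1, a chain of the interleukin 18 receptor, was at 55.1, 20.8 and 17.5 CPM in the TCT mice and at 8.68, 5.92, 10 and 6.69 CPM in the IL-10 mice (log2 fold change 1.99 ± 0.33, adjusted p = 3.6e-04). Cxcr6, a homing receptor of effector T cells, was at 32.6, 26.2 and 21.8 CPM in the TCT mice and at 13, 12.9, 14.1 and 12.9 CPM in the IL-10 mice (log2 fold change 1.02 ± 0.30, adjusted p = 0.019). Ifng was at 3.93, 4.36 and 6.95 CPM in the TCT mice and at 3.2, 2.8, 2.92 and 7 CPM in the IL-10 mice, with overlap and an interval of -1.87 to 2.58 on the log2 scale. Cxcl9 was at 101, 95.9 and 224 CPM in the TCT mice and at 116, 122, 105 and 135 CPM in the IL-10 mice, with an interval of -1.58 to 2.04, and the wild-type controls were at 0.638 ± 0.215 CPM. Both models thus held Cxcl9 far above the level of the wild-type controls and their difference was not resolved.

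None of the 4 groups of interferon-induced genes held a called gene in the fit of all 29 libraries. Most antiviral and class I genes lay lower in TCT all the same. 0 of 22 interferon-inducible GTPases and effectors were higher and 0 lower, with a median log2 fold change of 0.22. Iigp1, a GTPase of cell-autonomous defence, was at 300.2, 287 and 789.8 CPM in the TCT mice and at 503, 399, 337 and 634 CPM in the IL-10 mice and at 10.9 ± 2.01 CPM in wild-type controls. Ido1, which degrades tryptophan, spread widely, at 132, 58.6 and 355 CPM in the TCT mice and at 268, 215, 52 and 808 CPM in the IL-10 mice. Of 12 class II genes 0 were higher and 0 lower (median -0.23), and without mouse 4 there was 1 lower, H2-Oa. H2-Ab1, a class II beta chain, was at 1536, 956 and 1324 CPM in the TCT mice and at 1398, 1675, 1570.2 and 1704 CPM in the IL-10 mice (log2 fold change -0.32 ± 0.32, adjusted p = 0.51). Of 16 class I and immunoproteasome genes 0 were higher and 0 lower (median -0.44), and of 21 antiviral genes 0 and 0 (median -0.53). At an unadjusted p under 0.05 the counts in these 4 groups together were 1 higher and 8 lower of 70, beside 17.4% and 17.3% of all genes. DESeq2 on the 7 libraries called 1 higher and 9 lower of them, beside its 5.44% and 8.45% of all genes. Of the 9, 6 were antiviral and 3 were class I genes. The log2 fold change was negative in 20 of the 21 antiviral and 13 of the 16 class I genes. Every TCT mouse was below every IL-10 mouse in 7 of those 21 and 6 of those 16, beside 12.9% of all genes. Oas1a, an enzyme that senses double-stranded RNA and shares 57.6% of its windows with Oas1g, was at 107, 71.9 and 131 CPM in the TCT mice and at 153, 190.5, 176 and 139 CPM in the IL-10 mice (log2 fold change -0.67 ± 0.26, adjusted p = 0.065). Isg15 was at 50.5, 18.3 and 62.5 CPM in the TCT mice and at 59, 94.9, 88.7 and 59.3 CPM in the IL-10 mice (log2 fold change -0.79 ± 0.69, adjusted p = 0.45).

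Cytokines of the interleukin 17 and 22 axis were near the limit of counting in both models. Il17a was at 0.524, 0.171 and 0.741 CPM in the TCT mice and at 1.18, 0.935, 1.03 and 1.04 CPM in the IL-10 mice, lower without overlap but not called. Il22 was at 0.611, 0.427 and 1.3 CPM in the TCT mice and at 0.506, 0.519, 0.6 and 0.522 CPM in the IL-10 mice, with intervals of the log2 difference of -3.65 to 1.38 and -2.31 to 3.34, so that a 2-fold difference in either direction was not detectable at this depth. Il22 also shares 41% of its windows with its near copy Iltifb. Of 20 genes of the axis 2 (Il1r1 and Ahr) were higher in TCT and 1 lower. Il17rc, a receptor chain for interleukin 17 on epithelium, was at 114, 155 and 130 CPM in the TCT mice and at 212, 231, 246 and 245 CPM in the IL-10 mice (log2 fold change -0.81 ± 0.16, adjusted p = 0.0014). Il1r1, the signalling receptor for interleukin 1, was at 29.3, 35.3 and 28.2 CPM in the TCT mice and at 15.6, 18, 18.7 and 20.1 CPM in the IL-10 mice (log2 fold change 0.78 ± 0.19, adjusted p = 0.0063), neither with overlap.

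Several epithelial defence genes that interleukin 22 induces were lower in TCT. Of 22 tested, 10 were lower and 0 higher, with a median log2 fold change of -0.91. 5 were lower without mouse 4, 5 without mice 3 and 4, and 5 in the fit of 6 libraries alone, and the median without mouse 4 was -0.87. With another mouse left out the number lower was 6 without TCT mouse 1, 4 without TCT mouse 3 and 6 without TCT mouse 5. Reg3b, an antimicrobial lectin (ENSMUSG00000071356, chr6:78370657-78373466), was at 182, 74.7 and 84.4 CPM in the TCT mice and at 421, 303, 569 and 7506 CPM in the IL-10 mice (log2 fold change -4.27 ± 1.14, adjusted p = 0.01), and its value in mouse 4 was the highest of all 7 by far. Without mouse 4 the log2 fold change of Reg3b was -1.92 and it was not called (adjusted p = 0.11), although every remaining IL-10 mouse was above every TCT mouse. Reg3g, its relative, was at 174, 80.1 and 143 CPM in the TCT mice and at 275, 183, 298 and 4484 CPM in the IL-10 mice and likewise not called without mouse 4 (log2 fold change -0.92, adjusted p = 0.4).

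Duox2, Muc4, Lrg1 and Saa2 were called with and without that mouse. Duox2, the oxidase that makes hydrogen peroxide at the epithelial surface (ENSMUSG00000068452, chr2:122279247-122298449), was at 558, 321 and 504 CPM in the TCT mice and at 789, 1034, 1111 and 1029 CPM in the IL-10 mice (log2 fold change -1.10 ± 0.29, adjusted p = 0.0091, and adjusted p = 0.022 without mouse 4). Muc4, a membrane mucin, was at 63.5, 55.1 and 93.3 CPM in the TCT mice and at 147, 153, 207 and 469 CPM in the IL-10 mice (log2 fold change -1.79 ± 0.37, adjusted p = 0.0021, and adjusted p = 0.0099 without mouse 4). Lrg1, an acute-phase glycoprotein, was at 85.9, 152 and 229 CPM in the TCT mice and at 550.4, 843, 402 and 211 CPM in the IL-10 mice (log2 fold change -1.69 ± 0.46, adjusted p = 0.012, and adjusted p = 0.0069 without mouse 4), with mouse 4 inside the TCT range. Saa2, an acute-phase amyloid, was at 0.349, 0.342 and 1.39 CPM in the TCT mice and at 3.62, 4.05, 3.34 and 4.49 CPM in the IL-10 mice (log2 fold change -2.48 ± 0.38, adjusted p = 1.7e-04, and adjusted p = 4.4e-04 without mouse 4), but it shares 30% of its 50-base windows with Saa1 and its level is uncertain. Fut2, which adds fucose to mucosal glycans, was at 314, 306 and 348 CPM in the TCT mice and at 362, 554, 507 and 771 CPM in the IL-10 mice (log2 fold change -0.77 ± 0.27, adjusted p = 0.043) and was not called without mouse 4 (adjusted p = 0.17). Socs3, the feedback inhibitor below the interleukin 22 receptor, was at 172, 125 and 151 CPM in the TCT mice and at 118, 259.9, 135 and 168 CPM in the IL-10 mice (log2 fold change -0.19 ± 0.53, adjusted p = 0.84) and overlapped.

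**Figure D5:**
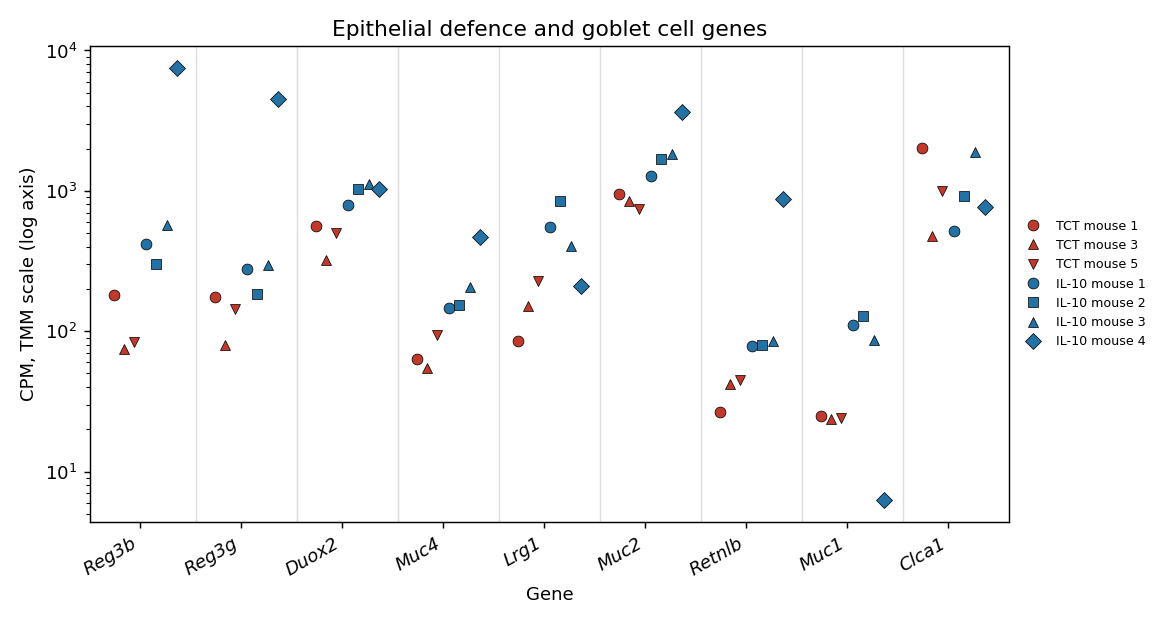
Epithelial defence and goblet cell genes by mouse, in CPM on a log axis, each point 1 mouse. IL-10 mouse 4 is the highest of the 7 for Reg3b (7506 CPM), Retnlb and Muc2, Duox2 is higher in every IL-10 mouse than in any TCT mouse, and Clca1 overlaps.

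Neutrophil genes and inflammatory cytokines were mostly not called. Of 22 neutrophil chemokines and neutrophil genes, 0 were higher and 1 was lower in TCT, with a median log2 fold change of 0.06. DESeq2 on the 7 libraries called 2 higher and 1 lower, beside its 5.44% and 8.45% of all genes. In 4 of the 22 every TCT mouse was above every IL-10 mouse, beside 13.2% of all genes. Cd177, a surface protein of neutrophils that colonic epithelium also makes, was at 433, 453 and 394 CPM in the TCT mice and at 909, 1206, 1373 and 419 CPM in the IL-10 mice (log2 fold change -1.19 ± 0.29, adjusted p = 0.0057), with mouse 4 inside the TCT range. Cxcl1 was at 6.98, 7.86 and 11.9 CPM in the TCT mice and at 12.3, 26.7, 8.66 and 6.37 CPM in the IL-10 mice. Cxcl5 was at 108, 80 and 179 CPM in the TCT mice and at 118, 205, 34.2 and 39 CPM in the IL-10 mice. Cxcr2, the receptor of both on neutrophils, was at 7.33, 8.2 and 12.6 CPM in the TCT mice and at 5.65, 6.86, 2.4 and 4.39 CPM in the IL-10 mice. Their intervals of the log2 difference were -1.74 to 0.55, -0.76 to 1.36 and -0.45 to 2.37, all of which include 0. Of these genes only Cxcr2 did not overlap, higher in every TCT mouse but not called. In the wild-type controls Cxcr2 had no count. Of 23 genes of the inflammatory cytokines and the oncostatin axis 2 were higher (Vcam1 and Selp, adhesion molecules of activated endothelium) and 0 lower, and without mouse 4 neither was called. Tnf was at 43.6, 16.9 and 40.7 CPM in the TCT mice and at 29.7, 37.2, 28.7 and 54.1 CPM in the IL-10 mice. Il1b was at 38.1, 44.1 and 45.1 CPM in the TCT mice and at 40.9, 43.2, 28.8 and 66.8 CPM in the IL-10 mice, both with overlap.

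Several macrophage genes were higher in TCT, in a number that depended on TCT mouse 1. Of 27 genes of monocytes, macrophages and dendritic cells, 7 were higher and 1 lower, beside 9.82% and 11.2% of all genes. Without mouse 4 the counts were 4 and 1, beside 5.98% and 7.16%. In the fit of 6 libraries alone they were 3 and 2, beside 1.83% and 2.95%. Without TCT mouse 1, 2 were higher and 0 lower, where over all genes 1242 were higher and 1664 lower. Csf1r, the receptor on which macrophages depend, was at 203, 158 and 132 CPM in the TCT mice and at 77.5, 73.8, 124 and 63 CPM in the IL-10 mice (log2 fold change 0.95 ± 0.25, adjusted p = 0.0098). Cd163, a scavenger receptor for haemoglobin, was at 8.55, 11.6 and 12.4 CPM in the TCT mice and at 2.7, 4.05, 2.74 and 1.46 CPM in the IL-10 mice (log2 fold change 1.98 ± 0.44, adjusted p = 0.0032). Mrc1, the mannose receptor, was at 53.6, 69.8 and 66.3 CPM in the TCT mice and at 37.4, 42.6, 22 and 14.8 CPM in the IL-10 mice (log2 fold change 1.11 ± 0.28, adjusted p = 0.0075). Neither overlapped. In the wild-type controls Cd163 was at 21.8 ± 3.67 and Mrc1 at 52.5 ± 7.29 CPM, so that for Cd163 both models lay below these controls. Cd68, a lysosomal protein of macrophages, was at 60.7, 33.1 and 33 CPM in the TCT mice and at 16.9, 16.8, 37 and 13.6 CPM in the IL-10 mice (log2 fold change 1.00 ± 0.28, adjusted p = 0.013), with overlap through IL-10 mouse 3. C1qa, the complement component of tissue macrophages, was at 291, 203 and 238 CPM in the TCT mice and at 200.1, 213, 278 and 211 CPM in the IL-10 mice and was not called (log2 fold change 0.11 ± 0.17, adjusted p = 0.67). Ly6c2, a marker of inflammatory monocytes, was at 11.7, 5.89 and 17.4 CPM in the TCT mice and at 43.1, 39.4, 41.7 and 30 CPM in the IL-10 mice, lower without overlap but not called (log2 fold change -1.73 ± 0.75, adjusted p = 0.1). Siglech, a lectin of plasmacytoid dendritic cells, was at 0.524, 0.854 and 0.833 CPM in the TCT mice and at 2.27, 1.97, 3.6 and 2.19 CPM in the IL-10 mice (log2 fold change -1.76 ± 0.48, adjusted p = 0.011).

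In the fit of all 29 libraries genes of the type 2 response were called about as often as all genes were. Of 24 tested, 3 (Mcpt1, Ccl24 and Retnla) were higher in TCT and 2 (Prg2 and Retnlb) lower, beside 9.82% and 11.2% of all genes. Without TCT mouse 5, 1 was higher. Prg2, the major basic protein of eosinophil granules that plasma cells also express, was at 0.262, 0.171 and 0.0926 CPM in the TCT mice and at 4.97, 5.09, 8.23 and 4.49 CPM in the IL-10 mice (log2 fold change -4.94 ± 0.51, adjusted p = 1.0e-06). Mcpt1, a protease of mucosal mast cells, was at 9.51, 1.11 and 4.54 CPM in the TCT mice and at 1.1, 0.831, 1.03 and 0.94 CPM in the IL-10 mice (log2 fold change 2.36 ± 0.52, adjusted p = 0.003), high in TCT mice 1 and 5. Retnla, a resistin-like protein of alternatively activated macrophages, was at 2.62, 11.6 and 20.1 CPM in the TCT mice and at 2.19, 3.22, 0.343 and 1.04 CPM in the IL-10 mice (log2 fold change 2.76 ± 0.77, adjusted p = 0.013), with overlap and at 20.8 ± 1.51 CPM in wild-type controls. In the fit of the 7 libraries alone, 0 were higher and 1 (Prg2) lower, and in the fit of 6 libraries 0 and 2.

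Some connective tissue and nerve genes were higher in TCT, and both counts depended on single mice. Of 22 genes of remodelling and fibroblasts 5 (Col6a3, Postn, Pdpn, Wnt5a and Has2) were higher and 0 lower, beside 9.82% and 11.2% of all genes. The median log2 fold change was 0.37. Without mouse 4 the median was 0.59, larger than with it, while 1 was called higher, beside 5.98% of all genes. With another mouse left out the number higher was 3 without IL-10 mouse 1, 2 without TCT mouse 1 and 3 without TCT mouse 3. In the fit of 6 libraries alone it was 2, beside 1.83% of all genes. Wnt5a, a ligand made by fibroblasts near wounds, was at 18.2, 30.9 and 22.7 CPM in the TCT mice and at 10.6, 13.8, 11 and 10.9 CPM in the IL-10 mice (log2 fold change 1.05 ± 0.21, adjusted p = 0.0017). Postn, a matrix protein of fibroblasts, was at 388, 348 and 319.9 CPM in the TCT mice and at 215, 288, 146 and 111 CPM in the IL-10 mice (log2 fold change 0.89 ± 0.25, adjusted p = 0.014, adjusted p = 0.056 without mouse 4). Of 16 genes of enteric neurons and glia 6 were higher and 1 was lower, beside 9.82% and 11.2% of all genes. Without mouse 4 the counts were also 6 and 1, beside 5.98% and 7.16%. The fit of 6 libraries alone called 3 and 1, beside 1.83% and 2.95%. Without TCT mouse 1, 3 were higher. Elavl4, an RNA-binding protein of neurons, was at 4.19, 3.08 and 3.06 CPM in the TCT mice and at 1.18, 1.56, 0.686 and 0.94 CPM in the IL-10 mice (log2 fold change 1.66 ± 0.32, adjusted p = 0.0013). In the wild-type controls it was at 5.73 ± 0.51 CPM. Tac1, the precursor of substance P, went the other way at 77.7, 37.8 and 79.7 CPM in the TCT mice and 171, 363, 186 and 40.8 CPM in the IL-10 mice (log2 fold change -1.55 ± 0.41, adjusted p = 0.01), with mouse 4 inside the TCT range. Among 14 smooth muscle genes 1 (Kcnmb1) was higher and 0 lower. The summed level of the smooth muscle list ran from 4717 to 6014 CPM in TCT and from 3172 to 6048 CPM in the IL-10 mice. The ranges overlapped, and the part of muscle content in the nerve and fibroblast results was not tested.

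Epithelial genes lay lower in TCT, all but Cdx2 by less than 1 on the log2 scale. Of 15 genes of epithelial identity 8 were lower and 0 higher, with a median log2 fold change of -0.41. 5 were lower without mouse 4 and 0 in the fit of 6 libraries alone, where at an unadjusted p under 0.05 9 were lower, beside 12.6% of all genes. Without TCT mouse 5, 5 were lower. Cdx2 (log2 fold change -3.59 ± 0.83, adjusted p = 0.0041) was high in IL-10 mice 3 and 4 alone, and without them it hardly differed between the groups. Epcam, the adhesion molecule of epithelium, was at 1625, 1337 and 1337 CPM in the TCT mice and at 1946, 2274, 1691 and 2569 CPM in the IL-10 mice (log2 fold change -0.56 ± 0.12, adjusted p = 0.0025). Vil1, the villin of the brush border, was at 896, 943 and 907 CPM in the TCT mice and at 1108, 1305, 1272 and 1702 CPM in the IL-10 mice (log2 fold change -0.56 ± 0.14, adjusted p = 0.0061). The summed level of the list was 18078 to 20183 CPM in TCT and 21644 to 30688 CPM in the IL-10 mice, highest in mouse 4 and without overlap, and its part in the lower defence, goblet and metabolic genes was not tested.

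Goblet cell and mucus genes lay in the same direction, with 12 of 20 lower and 0 higher and a median log2 fold change of -0.79. 7 were lower without mouse 4 (median -0.62) and 7 in the fit of 6 libraries alone. With another mouse left out the number lower was 7 without TCT mouse 3 and 7 without TCT mouse 5. Muc2, the gel-forming mucin of the colon, was at 944, 847 and 744 CPM in the TCT mice and at 1282, 1699, 1828 and 3650.5 CPM in the IL-10 mice (log2 fold change -1.32 ± 0.26, adjusted p = 0.0012, adjusted p = 0.0031 without mouse 4). Spink4, a small secreted protein of goblet cells, was at 241, 197 and 192 CPM in the TCT mice and at 348, 483, 342 and 374 CPM in the IL-10 mice (log2 fold change -0.88 ± 0.18, adjusted p = 0.0018, and adjusted p = 0.0036 without mouse 4). Agr2, which folds mucins, was at 504, 685 and 572 CPM in the TCT mice and at 983, 977, 798 and 1082 CPM in the IL-10 mice (log2 fold change -0.71 ± 0.21, adjusted p = 0.02, and adjusted p = 0.059 without mouse 4). Retnlb, the resistin-like molecule of goblet cells, was at 26.7, 42.2 and 44.8 CPM in the TCT mice and at 78.4, 79.1, 84.8 and 874 CPM in the IL-10 mice (log2 fold change -2.88 ± 0.83, adjusted p = 0.016) and was not called without mouse 4 (log2 fold change -1.09, adjusted p = 0.24). Muc1, a transmembrane mucin, was at 24.7, 23.7 and 24.1 CPM in the TCT mice and at 110.1, 129, 86 and 6.27 CPM in the IL-10 mice (log2 fold change -1.78 ± 0.49, adjusted p = 0.012). Here mouse 4 was the lowest of all 7 and without it the log2 fold change was -2.16 (adjusted p = 2.0e-06). Clca1, a protease of the mucus layer, was at 2012, 477 and 998 CPM in the TCT mice and at 514, 918, 1885 and 771 CPM in the IL-10 mice and was not called (log2 fold change 0.19 ± 0.43, adjusted p = 0.8).

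Absorptive genes of colonocytes were mostly not called. Of 22 tested, 3 (Slc9a3, Slc5a8 and Slc9a2) were lower and 0 higher. Without IL-10 mouse 1, 5 were lower. Slc9a3, the sodium and hydrogen exchanger of the apical membrane (ENSMUSG00000036123, chr13:74121457-74169442), was at 1.75, 5.98 and 7.32 CPM in the TCT mice and at 29.2, 37.4, 308 and 81.4 CPM in the IL-10 mice (log2 fold change -4.51 ± 0.96, adjusted p = 0.0025, adjusted p = 0.0038 without mouse 4), with every IL-10 mouse above every TCT mouse and mouse 3 the highest. Slc5a8, a carrier of short-chain fatty acids, was at 249, 202 and 182 CPM in the TCT mice and at 311, 328, 466 and 446 CPM in the IL-10 mice (log2 fold change -0.88 ± 0.22, adjusted p = 0.0073). Car1, a carbonic anhydrase of colonocytes, was at 451, 299 and 139.9 CPM in the TCT mice and at 122, 171, 238 and 3439.5 CPM in the IL-10 mice. Aqp8, a water channel, was at 197, 256 and 171 CPM in the TCT mice and at 253, 405, 1101 and 25.4 CPM in the IL-10 mice, both with overlap and with mouse 4 at opposite ends.

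Stem cell genes were mostly not called, 2 of 17 (Ascl2 and Tnfrsf19) higher and 0 lower in TCT. Ascl2, the transcription factor of crypt base stem cells, was at 10.5, 5.64 and 8.89 CPM in the TCT mice and at 3.03, 3.32, 2.92 and 1.78 CPM in the IL-10 mice (log2 fold change 1.59 ± 0.44, adjusted p = 0.013), without overlap. Lgr5, the receptor that marks the same cells, was at 3.49, 7.09 and 5.28 CPM in the TCT mice and at 6.91, 4.88, 4.89 and 4.49 CPM in the IL-10 mice and overlapped (log2 fold change -0.00 ± 0.48, adjusted p = 1). In the fetal-like regenerative list 1 of 23 was higher (Gja1, a gap junction protein, 0.80 ± 0.18, adjusted p = 0.0036) and 1 lower (Sprr1a, a cornified envelope protein, -1.55 ± 0.46, adjusted p = 0.018, and adjusted p = 0.088 without mouse 4). Ly6a, a marker of regenerating epithelium and of T cells, was at 1493, 1025 and 1613 CPM in the TCT mice and at 1826, 2462, 1412 and 1523 CPM in the IL-10 mice. None of the 22 cell cycle genes was called, 0 at an unadjusted p under 0.05 and 0 by DESeq2. Mki67 was at 142, 229 and 345 CPM in the TCT mice and at 316, 202, 204 and 205 CPM in the IL-10 mice and overlapped. Among 18 tuft and enteroendocrine genes 1 (Neurod1) was higher and 1 lower. Nts, the neurotensin precursor of gut endocrine cells, was at 0.349, 0.171 and 0.278 CPM in the TCT mice and at 0.758, 2.6, 0.772 and 23.9 CPM in the IL-10 mice (log2 fold change -4.66 ± 1.09, adjusted p = 0.0046), highest in mouse 4 and not called without it (adjusted p = 0.053).

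Some genes of sterol synthesis were lower in TCT, and their number depended on single mice. Of 23 genes of sterol and fatty acid synthesis 8 were lower and 0 higher, 4 without mouse 4, 2 without mice 3 and 4 and 6 in the fit of 6 libraries alone. With another mouse left out the number lower was 5 without IL-10 mouse 2, 5 without TCT mouse 1, 3 without TCT mouse 3 and 1 without TCT mouse 5, and the median log2 fold change lay between -0.65 without TCT mouse 3 and -0.47 without IL-10 mouse 4. For 15 of the 23 every TCT mouse was below every IL-10 mouse, beside 12.9% of all genes. Cyp51, which removes a methyl group from lanosterol, was at 181, 197 and 163 CPM in the TCT mice and at 377, 376, 294 and 490.2 CPM in the IL-10 mice (log2 fold change -1.09 ± 0.25, adjusted p = 0.0036). Hmgcs1, the synthase at the head of the pathway, was at 255, 295 and 202 CPM in the TCT mice and at 479, 448, 435 and 537 CPM in the IL-10 mice (log2 fold change -0.92 ± 0.27, adjusted p = 0.018). Insig1, the sterol-regulated brake on the pathway, was at 109, 144 and 122 CPM in the TCT mice and at 268, 241, 242 and 255 CPM in the IL-10 mice (log2 fold change -1.01 ± 0.31, adjusted p = 0.023). The groups did not overlap in these 3, and IL-10 mouse 4 was the highest in Cyp51 and Hmgcs1.

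Other metabolic groups were lower at some members only, beside 11.2% of all genes lower and 9.82% higher. Of 22 genes of fatty acid oxidation 4 were lower and 0 higher, but 1 without mouse 4, 1 without TCT mouse 1 and 0 in the fit of 6 libraries alone. Of 24 detoxification genes 6 were lower and 1 higher. The number lower was 3 without mouse 4, 3 without TCT mouse 5 and 1 in the fit of 6 libraries alone. Ugt1a7c, a glucuronosyltransferase, was at 29.7, 47.8 and 46.7 CPM in the TCT mice and at 12.3, 17.1, 20.4 and 9.51 CPM in the IL-10 mice (log2 fold change 1.48 ± 0.24, adjusted p = 2.7e-04), but 53.7% of its windows are shared with other Ugt1a genes and its level is uncertain. Cyp3a13, a cytochrome P450, was at 52.2, 49.6 and 54.4 CPM in the TCT mice and at 83.6, 115, 84.2 and 139.6 CPM in the IL-10 mice (log2 fold change -1.02 ± 0.22, adjusted p = 0.0026). Of 22 genes of the unfolded protein response 4 (Xbp1, Dnajb11, Edem1 and Chac1) were lower and 0 higher. The number lower was 2 without IL-10 mouse 2, 2 without TCT mouse 1, 2 without TCT mouse 3 and 9 without TCT mouse 5, where the median moved from -0.24 to -0.42. It was 0 in the 7 libraries alone and 1 in the fit of 6 libraries. Chac1, a glutathione-degrading enzyme induced by that response, was at 3.23, 1.88 and 4.26 CPM in the TCT mice and at 12, 27.7, 5.66 and 15.8 CPM in the IL-10 mice (log2 fold change -2.29 ± 0.51, adjusted p = 0.0033). Hspa5, its main chaperone, was at 584, 943 and 1212 CPM in the TCT mice and at 1014, 1317, 1031 and 840.1 CPM in the IL-10 mice and overlapped.

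Some clock genes were called, in both directions. Of 17 tested, 4 were higher in TCT (Arntl, Clock, Cry1 and Hlf) and 3 lower (Dbp, Nr1d1 and Nr1d2), beside 9.82% and 11.2% of all genes. Without mouse 4 the counts were 2 and 3, beside 5.98% and 7.16%. In the 7 libraries alone 0 were higher and 2 lower, and in the fit of 6 libraries 1 and 2. With another mouse left out the number higher was 2 without IL-10 mouse 1, 2 without TCT mouse 1 and 2 without TCT mouse 3. Dbp, an output gene of the clock, was at 3.93, 2.9 and 1.57 CPM in the TCT mice and at 10.2, 16.3, 11 and 12.1 CPM in the IL-10 mice (log2 fold change -2.14 ± 0.47, adjusted p = 0.0032). Nr1d1, the repressor Rev-erb alpha, was at 24.3, 24.3 and 17.6 CPM in the TCT mice and at 72, 86, 63.8 and 39.3 CPM in the IL-10 mice (log2 fold change -1.56 ± 0.39, adjusted p = 0.0075). The time of day at culling is not given, so the model and the hour cannot be told apart. Genes of pancreas and fat were checked as signs of attached tissue. The pancreatic enzymes Pnlip, Ctrb1 and Cpa1 had at most 1 count in all 7 libraries. Adipoq, the adiponectin of fat cells, was at 0, 1.45 and 3.61 CPM in the TCT mice and at 5.31, 3.74, 0.857 and 7.63 CPM in the IL-10 mice, and 1 of 10 genes tested (Cidec, a lipid droplet protein) was lower in TCT (-1.43 ± 0.48, adjusted p = 0.038, and adjusted p = 0.14 without mouse 4).

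The 10 largest falls and the 10 largest rises were taken over all called genes whose mice did not overlap and that had over 3 counts in a library of each group. Predicted genes, pseudogenes and all immunoglobulin and T cell receptor genes were passed over. Igha and Igkc, described above among the constant genes, fell by more than any of these. Among the falls, Fcrl1, an Fc receptor-like protein of B cells, was at 0.698, 0.256 and 0.185 CPM in the TCT mice and at 8.51, 7.06, 19.6 and 1.67 CPM in the IL-10 mice (log2 fold change -4.56 ± 0.73, adjusted p = 2.6e-04). Chst3, a sulfotransferase, was at 0.262, 0.342 and 0.185 CPM in the TCT mice and at 4.21, 4.26, 15.3 and 1.36 CPM in the IL-10 mice (log2 fold change -4.53 ± 0.70, adjusted p = 2.0e-04) and, as the B cell genes were, was highest in mouse 3 and lowest in mouse 4. Sptssb, a subunit of the enzyme that starts sphingolipid synthesis, was at 1.4, 1.45 and 0.556 CPM in the TCT mice and at 2.86, 2.6, 66.3 and 673 CPM in the IL-10 mice, highest in mice 3 and 4, with a log2 fold change of -7.33 (adjusted p = 0.0034) and -4.36 without mouse 4 (adjusted p = 0.017). The other 7 were Tnfrsf13c, Nts, Slc9a3, Ms4a1, Reg3b, Il10 and Derl3, already described. Among genes with at most 3 counts in every TCT library, and with the same genes passed over (Ighg2b among them), Jchain, Mzb1, Cd79a, H2-T3 and Pou2af1 had the highest levels in the IL-10 mice. Mzb1, a chaperone of antibody assembly, had 1 count in TCT and was at 58.8, 49.6, 100 and 40.2 CPM in the IL-10 mice, a ratio of 2168 (interval 389 to 85643). H2-T3, a non-classical class I molecule of small bowel epithelium, had 5 counts over the TCT libraries and was at 1.18, 1.04, 10 and 173 CPM in the IL-10 mice.

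Among the rises, Eomes and Gzmc were described with the cytotoxic genes. Gabrp, a subunit of the GABA-A receptor found in epithelium, was at 23.8, 3.42 and 15.7 CPM in the TCT mice and at 0.506, 0.831, 1.54 and 0 CPM in the IL-10 mice (log2 fold change 4.26 ± 0.64, adjusted p = 1.6e-04). Apol11a, an apolipoprotein L family member, was at 1.13, 4.36 and 1.3 CPM in the TCT mice and at 0.337, 0.519, 0.171 and 0.418 CPM in the IL-10 mice (log2 fold change 2.65 ± 0.62, adjusted p = 0.0083). Ngb, a neural globin, was at 3.67, 3.84 and 6.85 CPM in the TCT mice and at 0.674, 1.87, 0.6 and 0.522 CPM in the IL-10 mice (log2 fold change 2.39 ± 0.56, adjusted p = 0.0048), below the 12.4 ± 1.12 CPM of the wild-type controls, and Gria2, a glutamate receptor subunit, was at 1.48, 1.45 and 1.02 CPM in the TCT mice and at 0.337, 0.415, 0.0857 and 0.104 CPM in the IL-10 mice (log2 fold change 2.44 ± 0.61, adjusted p = 0.0071). Mettl7a3, a methyltransferase-like gene, was at 15, 8.2 and 6.58 CPM in the TCT mice and at 3.12, 3.43, 0.0857 and 0.104 CPM in the IL-10 mice (log2 fold change 2.55 ± 0.67, adjusted p = 0.0093), with mice 3 and 4 near 0, and it shares 48.7% of its windows with Mettl7a2. Krt83, Nmur1 and Mt4 were called at log2 fold changes of 2.69 ± 0.87, 2.45 ± 0.78 and 2.41 ± 0.75 and were not called without mouse 4 (adjusted p = 0.07, 0.077 and 0.06). Of genes with at most 3 counts in every IL-10 library, Rag1 had the highest level in TCT. Muc16, a transmembrane mucin, came next at 1.13, 1.96 and 1.2 CPM in the TCT mice, then Npbwr1 (3.32, 0.513 and 0.463 CPM), Ccdc170 (1.48, 0.769 and 0.833 CPM) and Adcyap1, a neuropeptide precursor (1.83, 0.683 and 0.556 CPM).

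The untreated controls were compared in the same fit, with the doubt over their labels given above. Untreated mice labelled Rag1-/- differed from the wild-type controls by 888 genes higher (4.77%) and 1150 lower (6.18%), a split that upper quartile scaling moved to 621 and 1462. These libraries are shared with neither colitis group. 180 genes were lower both in TCT against the IL-10 mice and in the Rag1-/- against the wild-type controls. They made up 8.6% of the first list and 15.7% of the second, beside 6.18% and 11.2% of all genes. 69 were higher in both, 3.77% and 7.77%, beside 4.77% and 9.82%. Others went opposite ways. 148 were higher in TCT and lower in the Rag1-/- controls (8.1% and 12.9%, beside 6.18% and 9.82% of all genes). 118 were lower in TCT and higher in the Rag1-/- controls (5.64% and 13.3%, beside 4.77% and 11.2%). 23 of the 27 B cell identity genes and 15 of the 23 plasma cell and antibody genes were lower in the Rag1-/- controls. For Igha the controls were at 1.23 ± 0.057 and 459 ± 309 CPM. Of the 27 T cell genes 0 were higher and 11 lower in the Rag1-/- controls.

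The change of each model from its labelled control was compared as a difference of differences. 1891 genes changed more upward in TCT (10.2%) and 1819 more downward (9.77%). Upper quartile scaling moved this split to 2632 and 1163, and the median over all genes from 0.02 to 0.17. Because the controls labelled Rag1-/- carry the Balb/C form of H2-Ea, strain enters this value, and genes such as H2-K1, at 83.7 ± 7.63 CPM in them and 1055 ± 79.8 CPM in the wild-type controls, cannot be read from it. Where a control group has no count or nearly none, as for Themis, Cd5, Mybpc1, Apol11a, Tbx5, Reg3b, Retnlb and Reg3g, the fitted size depends on the prior count of the fit and is no bound. Themis changed by 7.66 ± 1.02, adjusted p = 4.0e-05 on the log2 scale, from no count in the Rag1-/- and 0.383 ± 0.189 CPM in the wild-type controls. Cd5 changed by 8.42 ± 1.49, adjusted p = 7.9e-04, from no count and 0.924 ± 0.782 CPM. Mybpc1, a myosin-binding protein, Tbx5, a T-box factor, and Apol11a were the other 3 of the 5 largest upward differences among genes whose colitis groups did not overlap. Mybpc1 was at 1.31, 1.03 and 1.3 CPM in the TCT mice and at 0.59, 0.312, 0.0857 and 0 CPM in the IL-10 mice, and the direct difference was not called (adjusted p = 0.082). Tbx5 was at 1.31, 1.2 and 0.463 CPM in the TCT mice and at 0.421, 0.415, 0 and 0 CPM in the IL-10 mice (log2 fold change 2.19 ± 0.72, adjusted p = 0.033). Downward, Reg3b differed by -12.69 ± 2.47, adjusted p = 0.0012, and the controls were at 12 ± 14.8 and 0.0254 ± 0.044 CPM. Slc9a3 differed by -8.74 ± 1.43, adjusted p = 2.2e-04, with the controls at 28.4 ± 10 and 1.5 ± 0.26 CPM. Retnlb (-8.72 ± 2.06, adjusted p = 0.0048), Reg3g (-8.36 ± 2.22, adjusted p = 0.01) and Saa2 (-5.20 ± 0.57, adjusted p = 7.3e-07) followed, all of them genes of epithelial defence or goblet cells. The values for Reg3b, Retnlb and Reg3g include IL-10 mouse 4, which was far above the others at 7506, 874 and 4484 CPM. The direct differences of these genes were not called without it.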

How the data were processed

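Total RNA of mouse colon segments was sequenced after poly(A) selection, and the authors deposited 1 table of raw counts per gene for all 29 libraries, without normalization. The submitters' processing notes name Trimmomatic, HISAT2, HTSeq and GRCm38, with no versions. Whether reads were counted by strand is not given in the sources used here, so overlapping genes may share reads, as Cd72 with Tesk1 and Foxp3 with Flicr may. Gene identifiers were matched to GENCODE M21, which also gave the share of 50-base transcript windows common to other genes. Libraries were grouped by genotype and treatment labels, and the replicate numbers do not name a shared animal or batch.

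Genes with a mean of at least 3 counts over 29 libraries (18616 of 54532) were fitted in edgeR 4.0.16 (R 4.3.3) with TMM factors and 9 groups, and quasi-likelihood p-values were adjusted by Benjamini-Hochberg. TCT was compared with IL-10 deficiency, Rag1 control with wild-type control, and the changes from control with each other. Intervals are 95% and unadjusted. A group with no count was set to 3 counts per library for a bound, and a group with 1 to 3 counts is given as a ratio with an exact interval. Counts without molecular identifiers make all such intervals cover counting error only. DESeq2 1.42.0, other scalings and filters, the groups alone and each replicate left out were tried as alternatives. The code was tested on simulated counts. No pair of libraries held identical values. Genes are named as the key members of each list with up to 4 further called members of largest change, some of which are not reported here, and as the largest called changes over all genes, passing over predicted genes, pseudogenes and immunoglobulin and T cell receptor genes, constant genes included. The members and lists were chosen with earlier results of these data known. With 3 against 4 mice an exact permutation test of a single gene cannot go below 0.0571 (two-sided), so none is given.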

Additional observations from a re-analysis of the deposited data

Results flagged for a closer look

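Among the 4 IL-10 mice, 1 mouse lay far from the other 3 in 25 of 159 named genes by Dixon's ratio at the 95% level. Chance alone gives about 1 in 20 such groups, and the genes are not independent. Mouse 4 was that mouse for 10 genes and mouse 3 for 10. Mouse 4 stood above the others for Car1 at 3440 CPM, Fabp2 at 232 CPM, H2-T3 at 173 CPM, Ifng at 7.00 CPM, Nts at 23.9 CPM, Reg3b at 7506 CPM, Reg3g at 4484 CPM, Retnlb at 874 CPM and Sptssb at 673 CPM, and below them for Hoxa13 at 0.731 CPM. Many of these are genes of position, epithelial defence or absorption. Mouse 3 stood above the others for C1qa at 278 CPM, Cd68 at 37 CPM, Cd8b1 at 4.72 CPM, Cxcr6 at 14.1 CPM, Il2ra at 5.32 CPM, Lag3 at 19.7 CPM, Lat at 21.8 CPM, Ltb at 42.9 CPM, Prg2 at 8.23 CPM and Trbc1 at 15.6 CPM, most of them genes of lymphocytes or macrophages. Mouse 1 stood above the others for Lgr5 at 6.91 CPM and Mki67 at 316 CPM. Mouse 2 did so for Mt4 at 0.623 CPM, Ngb at 1.87 CPM and Wnt5a at 13.8 CPM.

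The change from the labelled control differed between the models by the interaction in edgeR's quasi-likelihood fit for 1891 genes upward and 1819 downward. The 5 largest upward differences among genes whose colitis groups did not overlap were Mybpc1 by 10.56, Cd5 by 8.42, Themis by 7.66, Apol11a by 7.47 and Tbx5 by 7.44 on the log2 scale. The 5 largest downward were Reg3b by -12.69, Slc9a3 by -8.74, Retnlb by -8.72, Reg3g by -8.36 and Saa2 by -5.20. Except for Slc9a3 and Saa2, a control group had no count or nearly none, so that these sizes depend on the prior count of the fit. Those of Reg3b, Retnlb and Reg3g also include IL-10 mouse 4, far above the other IL-10 mice, without which their direct differences were not called. The controls labelled Rag1-/- went against their strain label, and the part of strain in these values cannot be told apart from that of the model.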

How the results depend on the processing

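For TCT against the IL-10 mice, genes higher and lower numbered 1828 and 2093 as reported, 870 and 1353 with DESeq2 on the 7 libraries, 254 and 343 with these groups alone in edgeR, 340 and 549 alone without IL-10 mouse 4, 775 and 1116 without mice 3 and 4, and 703 and 1027 at a threshold of 0.01. Both alternatives that leave mouse 4 out together with another change were chosen after seeing the data. Leaving out each mouse in turn gave 1114 to 1854 higher and 1333 to 2173 lower, with 1114 and 1334 without IL-10 mouse 4 and 1186 and 1333 without TCT mouse 3. Other scalings and filters moved neither count by over 1.5 times. For the difference of changes the counts were 1891 and 1819, with 2632 and 1163 under upper quartile scaling and 842 and 805 at 0.01, and leaving out each mouse gave 1458 to 1999 and 1189 to 1916 (1189 lower without wild-type control 2). For the Rag1 control against the wild-type control they were 888 and 1150, with 1660 and 1851 by DESeq2, 1573 and 2089 alone and 469 and 648 at 0.01, and leaving out each mouse gave 504 to 863 and 791 to 951, the higher count being 520, 504 and 512 without Rag1 control 4, wild-type control 1 and wild-type control 2. The cause of these shifts was not tested, beyond fewer libraries where some are left out.

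With the replicate number as a block the counts for TCT against the IL-10 mice were 1503 and 1694. Only numbers 1 and 3 occur in both groups, and the deviations of same-numbered mice correlated at -0.103 and -0.0205 over 18616 genes, so the numbers were not taken to pair the mice. Of 160 named genes 16 lost their call without IL-10 mouse 4, 45 with the groups alone and 0 under upper quartile scaling. The direction turned for Cdx2 and Fabp2 without mice 3 and 4, to log2 fold changes of 0.016 and 0.014. Genes below the floor of 3 counts per library, such as most T cell receptor segments, could not be compared at this depth.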
